A study of Homo sapiens with 12 samples.

Results

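The genes described here encode the integrins, the laminins and 4 further proteins of the basement membrane in DU145, an established prostate cancer cell line. Members were the protein-coding genes whose symbol is that of an integrin alpha or beta subunit or of a laminin chain, together with AGRN, HSPG2, NID1 and NID2. The rule found 42 genes among 28747 gene identifiers, namely 18 alpha subunits, 8 beta subunits, 12 laminin chains and 4 other proteins. It used the names only and no measured value, although the members were chosen with earlier results of these data known. The study asked how the short hairpin RNA labelled shSigma changes gene expression in bulk cells and in tumor spheres enriched for stem-like cells. RNA was sequenced from 12 libraries in 4 groups of 3, cells with the control hairpin (shCtrl) or with shSigma, grown either adherent or as tumor spheres. Cells carried the hairpin in a lentiviral vector and had been selected with puromycin. The sources used here do not say how many separately made lines the libraries of a hairpin came from, so the effect of the hairpin and the history of a line cannot be told apart. Adherent cells grew in standard culture, whereas tumor spheres grew on a non-adhesive coating in serum-free medium with growth factors, so attachment and medium changed together.

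Integrins are receptors made of 1 alpha and 1 beta subunit that join the matrix outside a cell to its cytoskeleton. Laminins are trimers of an alpha, a beta and a gamma chain, and they form the sheet of the basement membrane that epithelial integrins bind. Nidogens and perlecan tie this sheet to the collagen IV network, and agrin links it to receptors on the cell surface. In the normal prostate the basal cells rest on such a membrane through hemidesmosomes, which carcinoma cells often lose.

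Libraries held 16472722 to 26957777 counts. The keratin genes KRT8 and KRT18 had at least 5262 and 5315 counts in every library. Of the prostate epithelial line markers, 4 were higher and 2 lower of 6 tested in adherent shSigma cells, and 1 was higher and 5 lower of 7 tested in shSigma spheres. Over all genes tested, 22.3% were higher and 27.7% lower in adherent cells, and 30.2% and 30.9% in spheres. KRT8 and KRT18 were higher in adherent cells by 0.76 and 0.58 on the log2 scale and lower in spheres by 0.21 and 0.44. EPCAM and CDH1, which join epithelial cells to each other, were lower in shSigma cells, by 2.99 and 1.23 on the log2 scale in adherent cells and by 3.31 and 4.71 in tumor spheres. KRT19 was higher in adherent shSigma cells by 1.91 (SE 0.36) on the log2 scale, and TMPRSS2, with a log2 fold change of -4.13 (SE 0.54) in spheres, had at most 21 counts in any library. Adherent replicates differed among themselves in their GC-rich genes. Genes with over 60% GC had a median log2 deviation from their group mean of -0.429, 0.0023 and 0.43 in adherent shCtrl replicates 1 to 3 and of 0.173, 0.291 and -0.45 in adherent shSigma replicates 1 to 3, against -0.164 to 0.123 in the tumor sphere libraries.

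Of the 42 members, 35 had enough counts to be tested in at least 1 comparison. The other 7 were ITGA4, ITGA8, ITGAD, ITGAL, ITGB6, LAMA4 and LAMB4, with highest counts of 4, 1, 1, 2, 7, 1 and 1 in any library. Levels are counts normalized to library size (CPM), and between genes they are compared as CPM per kilobase of exon. On that scale ITGB1, the shared beta partner of most laminin, collagen and fibronectin receptors, was the most abundant subunit, with 116 ± 8.10 CPM per kilobase in adherent shCtrl (SD, n = 3) and 88.1 ± 1.56 in tumor sphere shCtrl cells. ITGA3, which pairs with it to bind laminins, was the most abundant alpha subunit with 63.1 ± 16.6 and 54.6 ± 6.58. Among laminin chains in adherent shCtrl cells, LAMC1 (39.5 ± 0.0889), LAMB3 (35.2 ± 11.3) and LAMB2 (31.3 ± 11.6) stood highest and did not differ beyond their spread. In tumor sphere shCtrl cells LAMA3 (49.5 ± 4.32), LAMB2 (41.2 ± 6.54) and LAMB3 (41.1 ± 7.32) stood highest. AGRN was the most abundant of the 4 other proteins with 15.8 ± 8.57 and 15.2 ± 3.40 CPM per kilobase. ITGAM and ITGAX, alpha subunits known from leukocytes, stayed below 1 CPM per kilobase in every group.

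In adherent cells 34 members were tested between shSigma and shCtrl, of which 10 were higher and 10 lower at an adjusted p under 0.05, that is 29.4% each. Over all genes tested, 22.3% were higher and 27.7% lower. An adjusted p under 0.05 with an absolute log2 fold change over 1 was reached by 13 members (38.2%), 9 higher and 4 lower, against 13.7% of all genes. Their median log2 fold change was 0.14 and that of all genes was -0.01. Without the 2 adherent libraries with the lowest level of GC-rich genes, shCtrl replicate 1 and shSigma replicate 3, 23 members were called and 13 passed both thresholds, where 58.1% of all genes were called. With the trend on GC content removed 29 members were called and 12 passed both, where 63.9% of all genes were called. In tumor spheres 34 members were tested, of which 17 were higher and 9 lower (26.5%), where 30.2% of all genes were higher and 30.9% lower. Both thresholds were passed by 10 members (29.4%), 6 higher and 4 lower, against 13.1% of all genes, and the median was 0.17 against 0.00153 for all genes.

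The pair of comparisons shares no library. In both cultures 6 members were higher in shSigma cells (ITGA1, ITGA10, ITGB2, ITGB3, ITGB4 and HSPG2) and 6 were lower (ITGA2, ITGA5, LAMA2, LAMB1, NID1 and NID2). These were 17.1% each of the 35 members tested in either culture, where 13.5% of all genes so tested were higher and 16.7% lower in both. ITGA6 alone was called in opposite directions, as were 3.9% of all genes. A further 7 had a call only for adherent cells, among them ITGA11, which was too low to be tested in spheres, and 13 (37.1%) only for tumor spheres, where 14.5% and 25.3% of all genes were called in 1 culture in this way. ITGB8 had no call in either culture, nor had ITGB7, which was tested in spheres alone. The difference between cultures itself, taken as the log2 fold change in tumor spheres minus that in adherent cells, was called for 19 of 35 members, 7 positive and 12 negative. Of all genes 12.7% had a positive and 15.6% a negative difference.

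Collagen receptors were split by alpha subunit. ITGA2, the alpha subunit of the main epithelial collagen receptor (chromosome 5, 52989340 to 53094779, plus strand, GRCh38), had 102, 102 and 97.2 CPM in adherent shCtrl and 76.3, 74.4 and 88 CPM in adherent shSigma libraries. In sphere culture the levels were 254, 242 and 223 CPM in shCtrl and 42.0, 51.5 and 48.3 CPM in shSigma libraries. Within each culture no shSigma library reached the lowest shCtrl library, and the sphere groups stood furthest apart. The hairpin difference (log2) was -0.40 (SE 0.07, adjusted p = 0.00256) in adherent cells and -2.34 (SE 0.08, adjusted p = 9.14e-10) in tumor spheres, and the difference between cultures was -2.01 (SE 0.12). In shCtrl cells ITGA2 was 2.39 times higher in spheres than in adherent cells, whereas in shSigma cells the ratio was 0.605. The adherent call was lost without shSigma replicate 1 (adjusted p = 0.0578, with values down to 1.17e-04 in the other alternatives).

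ITGA1, a neighbour of ITGA2 on chromosome 5 and also a collagen receptor subunit, moved the other way. It had 17.1, 17.9 and 18.5 CPM in adherent shCtrl, 46.3, 44.5 and 53.1 CPM in adherent shSigma, 19.5, 18.9 and 16.5 CPM in sphere shCtrl and 27.2, 27.3 and 29.7 CPM in sphere shSigma libraries. The groups did not overlap in either culture, with log2 fold changes of 1.37 (SE 0.08) in adherent cells and 0.61 (SE 0.09) in tumor spheres and a difference of -0.81 (SE 0.13). Its exons overlap those of PELO by 499 bases. ITGA10, a collagen receptor subunit known from cartilage, was scarce but higher in both cultures. It had 1.27, 1.44 and 1.26 CPM in adherent shCtrl, 3.05, 2.71 and 3.23 CPM in adherent shSigma, 1.29, 1.71 and 1.26 CPM in sphere shCtrl and 3.83, 4.82 and 3.76 CPM in sphere shSigma libraries. The log2 fold changes were 1.12 (SE 0.16) and 1.54 (SE 0.20), and the difference between cultures was not called. ITGA11, the collagen receptor subunit of fibroblasts, had only 3 to 26 counts per library. It stood at 0.422, 0.338 and 0.118 CPM in adherent shCtrl and 1.05, 0.871 and 1.25 CPM in adherent shSigma libraries, a log2 fold change of 1.77 (SE 0.41), and between 0.159 and 0.583 CPM in the sphere libraries, where it was too low to be tested.

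Laminin-binding alpha subunits differed in size and direction of change. ITGA6, which pairs with ITGB1 or ITGB4, had 179, 176 and 172 CPM in adherent shCtrl and 146, 142 and 165 CPM in adherent shSigma libraries. Sphere levels were 81.0, 75.7 and 73.7 CPM in shCtrl and 96.5, 101 and 103 CPM in shSigma libraries. No library crossed between the hairpin groups in either culture, and the order of the groups turned between cultures. The shSigma to shCtrl log2 fold change was -0.29 (SE 0.06, adjusted p = 0.00807) in adherent cells and 0.38 (SE 0.06, adjusted p = 1.57e-04) in tumor spheres, with a difference of 0.60 (SE 0.09). The adherent call was lost without shSigma replicate 1 or 2 or shCtrl replicate 1 or 2, and the value fell to -0.07 (adjusted p = 0.397) when the median of the 40 nearest genes was taken off. Adjusted p over its alternatives ran from 0.00119 to that value. From adherent to sphere culture ITGA6 had a log2 fold change of -1.20 (SE 0.06) in shCtrl and -0.57 (SE 0.06) in shSigma cells.

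ITGA7, the laminin receptor subunit of muscle, had 3.15, 5.5 and 6.08 CPM in adherent shCtrl and 12.2, 11.6 and 9.55 CPM in adherent shSigma libraries, and between 10.4 and 12.3 CPM in all 6 sphere libraries. Adherent shCtrl cells alone were low, so that the log2 fold change was 1.13 (SE 0.24, adjusted p = 0.00707) in adherent cells and 0.01 (SE 0.10) in tumor spheres, and the difference between cultures was -1.16 (SE 0.26). ITGA3 had 459, 612 and 784 CPM in adherent shCtrl and 922, 992 and 672 CPM in adherent shSigma libraries, which overlap. In tumor spheres its log2 fold change was 0.27 (SE 0.08, adjusted p = 0.0145), a call lost in 1 fit of all 12 libraries (adjusted p = 0.269) and with the median of the 40 nearest genes taken off. Across all its alternatives adjusted p ran from 5.71e-04 to 0.269.

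Alpha subunits that bind fibronectin, vitronectin and related ligands came next. ITGA5, which forms the fibronectin receptor with ITGB1, was lower in shSigma cells of both cultures, by 0.38 on the log2 scale in adherent cells (SE 0.12, adjusted p = 0.0305) and by 0.37 in tumor spheres (SE 0.07). Its adherent range was 84.1 to 113 CPM in shCtrl and 71.2 to 83.1 CPM in shSigma libraries. The adherent call was lost without shSigma replicate 1, 2 or 3 and without shCtrl replicate 2 or 3 (adjusted p 0.0588 to 0.125), and over all its alternatives adjusted p ran from 1.14e-04 to 0.125. ITGAV, the alpha subunit of the vitronectin receptors, lay between 149 and 201 CPM in every library, with a log2 fold change of -0.10 (SE 0.07) in adherent cells and 0.30 (SE 0.06, adjusted p = 6.70e-04) in tumor spheres. ITGA2B, known as the platelet fibrinogen receptor subunit, lay between 5.67 and 10.4 CPM and was lower in shSigma spheres by 0.48 (SE 0.12). ITGA9 had 1.42, 1.95 and 1.70 CPM in adherent shCtrl and 0.905, 0.922 and 0.579 CPM in adherent shSigma libraries, a log2 fold change of -1.13 (SE 0.26, adjusted p = 0.00842). In spheres it had 1.58, 1.82 and 2.07 CPM in shCtrl and 1.26, 1.17 and 1.59 CPM in shSigma libraries, which overlap. The adherent call for ITGA9 was lost with DESeq2 (adjusted p = 0.0632) and with the median of the 40 nearest genes taken off (-0.72, adjusted p = 0.0552), and its exons overlap those of its antisense gene by 763 bases.

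Among alpha subunits known from leukocytes, ITGAX had 0.653, 0.888 and 0.868 CPM in adherent shCtrl and 6.14, 5.99 and 5.40 CPM in adherent shSigma libraries. The levels in tumor spheres were 3.75, 3.26 and 3.73 CPM in shCtrl and 2.47, 2.86 and 2.91 CPM in shSigma libraries. Adherent shCtrl cells were the lowest group and adherent shSigma cells the highest, without overlap between any groups. The log2 fold change was 2.80 (SE 0.18, adjusted p = 2.75e-05) in adherent cells and -0.39 (SE 0.16, called in 4 of 14 alternatives) in tumor spheres, and the difference of -3.24 (SE 0.22) had the greatest size among the members. ITGAM moved the other way in adherent cells, with 0.999, 1.31 and 1.89 CPM in shCtrl and 0.333, 0.410 and 0.531 CPM in shSigma libraries, a log2 fold change of -1.77 (SE 0.33). In spheres it had 1.29, 0.718 and 1.51 CPM in shCtrl and 0.958, 1.06 and 1.01 CPM in shSigma libraries, and these groups overlap. ITGAE, the receptor subunit for E-cadherin on lymphocytes, lay between 29.6 and 43.7 CPM. It was lower in shSigma spheres by 0.31 (SE 0.08) and not called in adherent cells (-0.05, SE 0.07). CDH1 was lower in both cultures, and a link between these genes was not tested. Of 14 leukocyte and platelet markers, 10 to 12 had at most 3 counts in every library of a group, their summed level was 0.531 to 4.59 CPM, and PTPRC, the defining leukocyte marker, had at most 4 counts in any library. CSF1R had 17 to 33 counts per shCtrl library and 0 to 6 per shSigma library, and in spheres CD14 and FERMT3 were lower by 1.93 (SE 0.36) and 1.83 (SE 0.36).

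Beta subunits ranged over a wide span of change. ITGB2, the leukocyte beta subunit (chromosome 21, 44885953 to 44931989, minus strand), had 7.57, 11 and 14.9 CPM in adherent shCtrl and 32.7, 35.1 and 21.6 CPM in adherent shSigma libraries. In tumor spheres it had 1.99, 1.27 and 1.86 CPM in shCtrl and 13.8, 12.5 and 12.1 CPM in shSigma libraries. The shSigma libraries lay above all shCtrl libraries of their culture. The hairpin difference (log2) was 1.37 (SE 0.30, adjusted p = 0.0109) in adherent cells and 2.90 (SE 0.16, adjusted p = 2.83e-08) in tumor spheres, and the difference between cultures was 1.49 (SE 0.39). The adherent call was lost with the median of the 40 nearest genes taken off (0.85, adjusted p = 0.0615), and adjusted p ran from 1.74e-07 to that value over its alternatives. ITGB2 fell from adherent to sphere culture with both hairpins, with log2 fold changes of -2.70 (SE 0.30) in shCtrl and -1.20 (SE 0.21) in shSigma cells. Its exons overlap those of an antisense gene by 303 bases.

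ITGB3, the vitronectin receptor beta subunit (chromosome 17, 47253827 to 47313743, plus strand), had 1.96, 2.03 and 2.56 CPM in adherent shCtrl and 13.5, 13.9 and 15.2 CPM in adherent shSigma libraries. In sphere culture the levels were 0.937, 0.718 and 0.756 CPM in shCtrl and 2.97, 3.71 and 2.6 CPM in shSigma libraries. In each culture the hairpin groups were separate, and adherent shSigma cells stood above every other group. The shSigma to shCtrl log2 fold change was 2.63 (SE 0.13, adjusted p = 1.07e-05) and 1.94 (SE 0.23, adjusted p = 2.01e-05). ITGB5, the other major beta partner of ITGAV, moved the other way in adherent cells. It had 179, 187 and 221 CPM in adherent shCtrl, 77.7, 76.7 and 70.6 CPM in adherent shSigma, 80.7, 68.1 and 73.1 CPM in sphere shCtrl and 80.0, 80.0 and 73.8 CPM in sphere shSigma libraries. Adherent shCtrl cells were apart from the other groups, with a log2 fold change of -1.44 (SE 0.09, adjusted p = 2.99e-05) in adherent cells, 0.07 (SE 0.07) in tumor spheres and a difference of 1.46 (SE 0.12). Per kilobase, ITGB3 rose from 0.320 ± 0.0485 to 2.08 ± 0.129 while ITGB5 fell from 30.0 ± 3.45 to 11.5 ± 0.593 (SD, n = 3), so ITGB5 remained the more abundant of the pair.

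ITGB4, the hemidesmosomal beta subunit (chromosome 17, 75721328 to 75757818, plus strand), had 9.37, 16.8 and 27.1 CPM in adherent shCtrl and 107, 128 and 51.1 CPM in adherent shSigma libraries. Sphere levels were 47.2, 27.9 and 36.4 CPM in shCtrl and 51.7, 61.9 and 54.1 CPM in shSigma libraries. The hairpin groups did not overlap in either culture, but the adherent replicates spread widely. The log2 fold change was 2.38 (SE 0.50, adjusted p = 0.00901) in adherent cells and 0.59 (SE 0.16, adjusted p = 0.0113) in tumor spheres. ITGB4 has 63.6% GC, and its adherent value was 2.05 with the trend on GC content removed and 2.40 without the 2 adherent libraries lowest in GC-rich genes. The sphere call was lost with no filter on low counts (adjusted p = 0.111) and in 1 fit of all 12 libraries (adjusted p = 0.260), over a range from 9.20e-05. ITGB8, a beta partner of ITGAV known for binding latent TGF-beta, differed mainly between cultures. It had 0.499, 0.423 and 0.513 CPM in adherent shCtrl, 0.714, 0.563 and 1.35 CPM in adherent shSigma, 2.99, 2.04 and 2.47 CPM in sphere shCtrl and 2.02, 1.59 and 2.17 CPM in sphere shSigma libraries. All sphere libraries lay above all adherent ones, with log2 fold changes from adherent to sphere of 2.36 (SE 0.24) in shCtrl and 1.15 (SE 0.31) in shSigma cells. The second was not called without adherent shSigma replicate 1 or without sphere shSigma replicate 1 or 3 (adjusted p 0.0591 to 0.0601). ITGB1 lay between 1265 and 2294 CPM in all libraries. From adherent to sphere culture its log2 fold change was -0.40 (SE 0.08) in shCtrl cells. Between hairpins in adherent cells it was 0.23 (SE 0.09, adjusted p = 0.0748), with groups that did not overlap and a call in 5 of 15 alternatives. ITGB1 was 1.31 times higher in shSigma than in shCtrl spheres (log2 0.39, SE 0.06). The 40 genes nearest to ITGB1 had a median log2 fold change of 0.40 in spheres, and with it taken off the value was -0.01 (adjusted p = 0.846). Whether this reflects the region was not tested. ITGB7 had 3 to 21 counts per library and was called in no comparison in which it was tested.

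**Figure D1:**
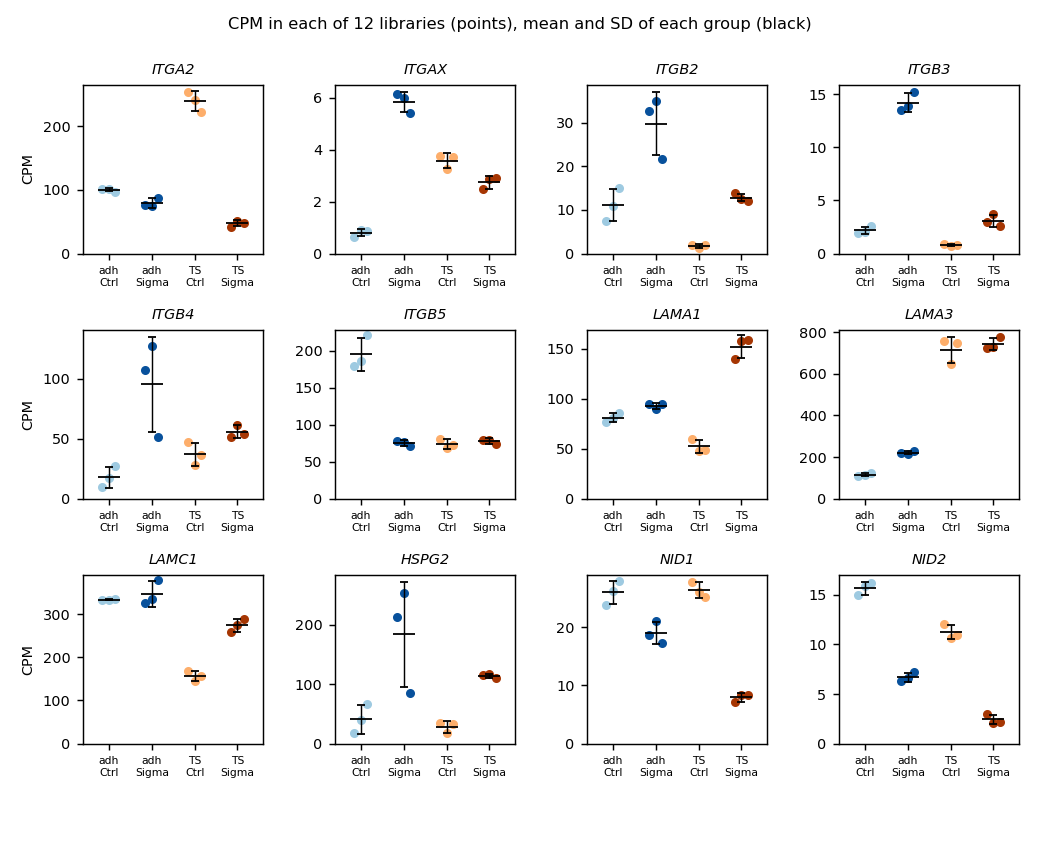
CPM of 12 members in each of the 12 libraries (points) with group mean and SD (black), on linear axes that start at 0. ITGB5 is high in adherent shCtrl cells alone, ITGA2 is highest in sphere shCtrl cells, and HSPG2 and ITGB4 spread widely among adherent shSigma replicates.

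Among laminin alpha chains, LAMA1, the chain of the embryonic laminin, was higher in shSigma spheres. It had 76.4, 81.0 and 86.2 CPM in adherent shCtrl and 94.8, 89.5 and 94.9 CPM in adherent shSigma libraries. The levels in tumor spheres were 59.9, 48.0 and 49.0 CPM in shCtrl and 140, 158 and 159 CPM in shSigma libraries. The sphere groups were far apart and the adherent groups close without overlapping. The hairpin difference (log2) was 0.14 (SE 0.06, adjusted p = 0.111) in adherent cells and 1.54 (SE 0.09, adjusted p = 1.61e-07) in tumor spheres, with a difference of 1.35 (SE 0.12). Exons of LAMA1 overlap those of another gene with counts by 1641 bases. LAMA3, the alpha chain of the laminin that binds hemidesmosomes, differed mainly between cultures. It had 108, 114 and 122 CPM in adherent shCtrl, 219, 216 and 230 CPM in adherent shSigma, 758, 646 and 749 CPM in sphere shCtrl and 724, 730 and 777 CPM in sphere shSigma libraries. Every sphere library exceeded every adherent one, by 6.25-fold in shCtrl and 3.41-fold in shSigma cells. The hairpin difference (log2) was 0.89 (SE 0.06, adjusted p = 2.79e-05) in adherent cells and 0.05 (SE 0.07) in tumor spheres. LAMA2, the muscle laminin chain, had 2.61, 2.41 and 2.05 CPM in adherent shCtrl, 1.57, 1.28 and 1.35 CPM in adherent shSigma, 2.63, 2.54 and 2.42 CPM in sphere shCtrl and 1.16, 0.901 and 0.742 CPM in sphere shSigma libraries. It was lower in both cultures, by 0.81 (SE 0.19) and 1.43 (SE 0.22) on the log2 scale, and the adherent call was lost with DESeq2 (adjusted p = 0.103, against a lowest value of 0.00320). LAMA5, the alpha chain of most adult epithelial laminin, had 44.9, 101 and 196 CPM in adherent shCtrl and 201, 248 and 70.3 CPM in adherent shSigma libraries, which overlap. In spheres it had 155, 83.4 and 126 CPM in shCtrl and 268, 231 and 194 CPM in shSigma libraries, a log2 fold change of 0.92 (SE 0.20, adjusted p = 0.00290) that was not called with no filter (0.0642) or in 1 fit of all 12 libraries (0.198), where its alternatives ran from 1.37e-04 to 0.198.

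Of the gamma and beta chains, LAMC1, the gamma chain of most laminins, had 334, 333 and 334 CPM in adherent shCtrl and 325, 335 and 380 CPM in adherent shSigma libraries, which overlap. In tumor spheres it had 167, 145 and 157 CPM in shCtrl and 258, 274 and 290 CPM in shSigma libraries, which do not. The shSigma to shCtrl log2 fold change was -0.01 (SE 0.06) in adherent cells and 0.81 (SE 0.07, adjusted p = 8.52e-07) in tumor spheres, and LAMC1 fell by 1.10 on the log2 scale from adherent to sphere culture in shCtrl and by 0.32 in shSigma cells. The 40 genes nearest to LAMC1 had a median log2 fold change of 0.27 in adherent cells and 0.53 in spheres. With it taken off, the adherent value was -0.28 and called (adjusted p = 0.00897). Over its alternatives the sphere value of LAMC1 ran from 0.28 to 0.87 and stayed called. Whether this reflects the region was not tested. LAMC3 had 2.54, 4.14 and 7.14 CPM in adherent shCtrl, 3.67, 4.25 and 1.74 CPM in adherent shSigma, 7.44, 6.07 and 6.65 CPM in sphere shCtrl and 13.1, 11.7 and 12.2 CPM in sphere shSigma libraries. Its sphere difference of 0.87 (SE 0.11, adjusted p = 3.75e-05) was not called in 1 fit of all 12 libraries (adjusted p = 0.0517). LAMB1 was lower in both cultures by 0.38 (SE 0.06) and 0.36 (SE 0.08). Its 40 nearest genes had a median log2 fold change of 0.47 in adherent cells and 0.55 in spheres. Over its alternatives LAMB1 ran from -0.85 to -0.28 in adherent cells and from -0.91 to -0.27 in spheres, called in each. LAMB2 and LAMB3 were higher in shSigma spheres by 0.36 (SE 0.10) and 0.38 (SE 0.11) and had 0.76 (SE 0.35) and -0.10 (SE 0.29) in adherent cells. Their sphere calls were lost in 1 fit of all 12 libraries (adjusted p = 0.331 and 0.234, against lowest values of 2.00e-04 and 7.03e-04), and that of LAMB3 also with no filter on low counts (adjusted p = 0.10).

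In tumor spheres the 4 proteins that tie the basement membrane together formed opposing pairs, HSPG2 and AGRN higher and the nidogens lower. HSPG2, which encodes perlecan (chromosome 1, 21822244 to 21937310, minus strand), had 17.9, 39.2 and 65.8 CPM in adherent shCtrl and 213, 253 and 84.5 CPM in adherent shSigma libraries. In sphere culture the levels were 34.5, 17.0 and 33.4 CPM in shCtrl and 115, 117 and 110 CPM in shSigma libraries. All shSigma libraries were above all shCtrl libraries of their culture, and the sphere groups were the tighter. The log2 fold change was 2.13 (SE 0.60, adjusted p = 0.0268) in adherent cells and 2.00 (SE 0.21, adjusted p = 2.58e-05) in tumor spheres. HSPG2 has 64.5% GC. The adherent value was 1.77 with the trend on GC content removed, and its call was lost without shSigma replicate 1 or 2, without shCtrl replicate 1 or 2 (adjusted p 0.0813 to 0.0986) and with no filter on low counts (0.0919), over a range of 2.39e-04 to 0.111. AGRN, which encodes agrin, had 87.6, 152 and 270 CPM in adherent shCtrl and 313, 373 and 152 CPM in adherent shSigma libraries, which overlap. In spheres it had 196, 124 and 169 CPM in shCtrl and 584, 446 and 357 CPM in shSigma libraries, a log2 fold change of 1.5 (SE 0.20, adjusted p = 1.32e-04).

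Both nidogens moved down. NID1 (chromosome 1, 235975830 to 236065109, minus strand) had 23.9, 26.2 and 27.9 CPM in adherent shCtrl and 18.8, 21.1 and 17.2 CPM in adherent shSigma libraries, and in spheres 27.9, 26.0 and 25.2 CPM in shCtrl and 7.11, 8.42 and 8.42 CPM in shSigma libraries. NID2 (chromosome 14, 52004809 to 52069059, minus strand) had 14.9, 15.9 and 16.2 CPM in adherent shCtrl and 6.29, 6.61 and 7.19 CPM in adherent shSigma libraries, and in spheres 12.1, 10.7 and 11 CPM in shCtrl and 2.97, 2.12 and 2.23 CPM in shSigma libraries. Neither gene had a shSigma library within the range of its shCtrl libraries. The log2 fold changes of NID1 were -0.51 (SE 0.11) in adherent cells and -1.73 (SE 0.10, adjusted p = 4.36e-08) in tumor spheres, and those of NID2 were -1.29 (SE 0.10, adjusted p = 4.98e-05) and -2.20 (SE 0.15, adjusted p = 1.55e-07). The differences between cultures were -1.27 (SE 0.15) and -0.97 (SE 0.18). Exons of NID2 overlap those of RTRAF by 1909 bases and those of HSPG2 overlap LDLRAD2 by 2122 bases, and the use of strand in counting is not given in the sources used here. Among members described above, exons of ITGB7 overlap those of ZNF740 by 1881 bases and those of ITGAE overlap HASPIN by 427. Exons of LAMA5 overlap those of ADRM1 and an antisense gene by 362 bases, and those of LAMB1 overlap DLD by 300.

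HSPG2, ITGA10, ITGB2, ITGB3 and NID2 passed both thresholds in both cultures. RefSeq promoter sequence on GRCh38.p14 was read for 24 of the 35 tested members, among them HSPG2, ITGA10 and NID2, and the 250 bases before their start sites are shown because these genes passed in both cultures. All lie on the minus strand, at chr1:21937311-21937560, chr1:145910051-145910300 and chr14:52069060-52069309. Capitals mark matches on either strand to the TATA box TATAAA, the GC box GGGCGG, the AP-1 site TGANTCA or the box CCAAT, and neighbouring matches may overlap.
HSPG2: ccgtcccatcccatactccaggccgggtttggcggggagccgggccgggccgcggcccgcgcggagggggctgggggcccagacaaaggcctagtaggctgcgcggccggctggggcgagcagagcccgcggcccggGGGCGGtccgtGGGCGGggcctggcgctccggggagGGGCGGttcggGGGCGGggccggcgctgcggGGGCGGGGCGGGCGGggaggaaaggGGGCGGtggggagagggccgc
ITGA10: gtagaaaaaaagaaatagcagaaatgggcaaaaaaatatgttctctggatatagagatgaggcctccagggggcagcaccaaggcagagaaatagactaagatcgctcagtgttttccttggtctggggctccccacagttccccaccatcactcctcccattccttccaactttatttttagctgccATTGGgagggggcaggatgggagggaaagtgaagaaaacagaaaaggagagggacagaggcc
NID2: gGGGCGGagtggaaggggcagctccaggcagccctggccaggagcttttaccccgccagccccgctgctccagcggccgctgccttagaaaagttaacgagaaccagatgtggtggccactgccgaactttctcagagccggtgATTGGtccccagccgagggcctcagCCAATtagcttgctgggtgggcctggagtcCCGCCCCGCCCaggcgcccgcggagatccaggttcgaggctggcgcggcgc
Only the GC box was found before HSPG2, a CCAAT box before ITGA10, and both before NID2. Among 35116 RefSeq promoter windows of the same length, 10.7% held the TATA box, 42.6% the GC box, 6.57% the AP-1 site and 32.0% the CCAAT box. Of the 24 members, 1, 15, 1 and 5 held them.

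The comparisons of sphere with adherent culture share libraries with those above. In shCtrl cells 34 members were tested, of which 7 (20.6%) were higher and 8 (23.5%) lower in spheres, where 27.4% of all genes were higher and 26.3% lower. Both thresholds were passed by 10 members against 15.8% of all genes, namely ITGAX, LAMA3, ITGB8, ITGA2 and ITGA7 upward and ITGB2, ITGB3, ITGB5, ITGA6 and LAMC1 downward. In shSigma cells 8 of 34 (23.5%) were higher and 12 (35.3%) lower, where 21.9% of all genes were higher and 25.2% lower, and 10 passed both thresholds against 9.32% of all genes. These were LAMC3, LAMA3, ITGAM and ITGB8 upward and ITGB3, ITGA11, NID2, NID1, ITGB2 and ITGAX downward. ITGB8 and LAMA3 were thus higher, and ITGB2 and ITGB3 lower, in the spheres of both shCtrl and shSigma cells. ITGAX had a log2 fold change of 2.15 (SE 0.19) in shCtrl and -1.07 (SE 0.14) in shSigma cells. HSPG2 had -0.53 (SE 0.48) and -0.68 (SE 0.41), not called, and -1.35 and -1.29, both called, with the trend on GC content removed.

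Among the members themselves the spread of adherent replicates moved with base composition. Of the 28 members with at least 100 counts in some library, LAMA5 (66.4% GC) differed 4.35-fold and HSPG2 3.67-fold between the highest and lowest adherent shCtrl library, whereas LAMC1 (48.8% GC) differed 1.00-fold and ITGA6 (42.5% GC) 1.04-fold. In adherent shSigma cells LAMA5 differed 3.53-fold and ITGA6 1.16-fold. With the trend on GC content removed, AGRN (0.27), ITGA3 (0.17), LAMB2 (0.52), ITGB1 (0.35), ITGB8 (0.92), LAMA1 (0.12) and ITGAV (0.11) were also called higher in adherent shSigma cells. ITGA2B (-0.35) and LAMC3 (-0.85) were also called lower there. The part of this spread in the members' adherent results was not tested beyond the values given with the trend on GC content removed and without the 2 libraries named above. That trend was fitted to the deviation of each library from the mean of all libraries in the comparison. Its removal therefore also takes off differences between groups that follow GC content.

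Genes outside the family but on the same pathway were taken as lists and counted, to be read against the shares of all genes given above (22.3% higher and 27.7% lower in adherent cells, 30.2% and 30.9% in spheres). Of 26 tested adaptor and focal adhesion genes, which join integrins to actin, 5 were higher and 4 lower in adherent shSigma cells and 13 higher and 3 lower in shSigma spheres. The kinase gene PTK2B was higher in both, by 1.51 (SE 0.14) and 0.83 (SE 0.08) on the log2 scale, as was TNS2 by 1.36 (SE 0.28) and 0.94 (SE 0.11). In spheres BCAR1 (1.03, SE 0.12) and FLNA (1.06, SE 0.13) were higher and TNS1 (-1.85, SE 0.21) was lower. Of the hemidesmosome and tetraspanin genes 3 of 7 tested were higher and 0 lower in adherent cells, and 5 of 8 were higher and 2 lower in spheres. COL17A1, the hemidesmosomal collagen, was higher by 0.82 (SE 0.17) in adherent cells and 2.58 (SE 0.15) in spheres, CD82 was higher in adherent cells by 1.48 (SE 0.30), and TSPAN8 was lower in spheres by 1.02 (SE 0.29).

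Of 8 tested laminin receptors that are not integrins, 5 were higher and 2 lower in adherent and 3 higher and 3 lower in sphere shSigma cells. BCAM, which binds LAMA5, was higher by 2.03 (SE 0.47) and 0.78 (SE 0.12), and SDC1 by 1.07 (SE 0.23) and 0.31 (SE 0.08). SDC2 was lower by 1.35 (SE 0.13) and 2.05 (SE 0.08). LGALS3, a galectin that binds laminin sugars, was higher in adherent cells by 1.23 (SE 0.09) and lower in spheres by 1.36 (SE 0.12).

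Of 12 tested basement membrane partners, 0 were higher and 7 lower in adherent shSigma cells, and 4 were higher and 6 lower in spheres. COL4A5, a collagen IV chain, had 73.0, 78.9 and 76.1 CPM in adherent shCtrl and 0.476, 0.410 and 0.482 CPM in adherent shSigma libraries. In spheres it had 114, 114 and 111 CPM in shCtrl and 0.252, 0.318 and 0.0530 CPM in shSigma libraries, with 1 to 10 counts in all shSigma libraries. The log2 fold changes were -7.42 (SE 0.11) and -9.04 (SE 0.16). Its partner chain COL4A6 had 43 to 108 counts per shCtrl library and 0 to 11 per shSigma library. NTN4, a netrin that loosens laminin networks, was lower by 2.17 (SE 0.09) and 4.37 (SE 0.11). COL4A4 was lower by 1.04 (SE 0.14) in adherent cells and by 0.96 (SE 0.14) in spheres. SMOC1 was lower in adherent cells by 1.03 (SE 0.12), COL7A1 was lower in spheres by 1.83 (SE 0.18) and COL18A1 higher there by 1.61 (SE 0.18). FBLN1 was lower in adherent cells by 1.98 (SE 0.30) and higher in spheres by 1.49 (SE 0.09).

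Integrin ligands outside the basement membrane included secreted proteins that were higher in both cultures. Of 14 tested, 8 were higher and 5 lower in adherent shSigma cells, and of 15 tested in spheres 9 were higher and 4 lower. VTN, the vitronectin bound by ITGB3 and ITGB5 receptors, was higher by 3.6 (SE 0.21) and 3.66 (SE 0.26), TNC by 2.42 (SE 0.08) and 3.05 (SE 0.09), FN1 by 1.00 (SE 0.06) and 2.29 (SE 0.07) and EDIL3 by 3.83 (SE 0.08) and 0.68 (SE 0.06). THBS1 was higher by 0.51 (SE 0.09) and 2.74 (SE 0.06) and MFGE8 by 1.30 (SE 0.20) and 0.48 (SE 0.07). CCN1 and CCN2 turned with culture, lower by 1.40 (SE 0.06) and 0.70 (SE 0.08) in adherent cells and higher by 1.19 (SE 0.06) and 2.17 (SE 0.12) in spheres. NPNT turned the opposite way, with 1.79 (SE 0.13) and -0.80 (SE 0.16), and FBN1 was lower in adherent cells by 1.20 (SE 0.14). Of 9 fibroblast markers 4 to 6 had at most 3 counts in every library of a group and the summed level was 3.67 to 26.8 CPM, with COL1A1 taking the most counts and COL1A2 at 26 to 48 counts per shCtrl and 0 to 4 per shSigma library. For 8 endothelial markers these were 2 to 5 and 2.5 to 31.2 CPM, with EGFL7 taking the most counts and KDR lower in shSigma spheres by 1.62 (SE 0.26). Their part in the levels of the ligands was not tested.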

How the data were processed

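RNA-seq libraries of adherent and tumor sphere DU145 cells were aligned by the authors with STAR 2.6.1c to GRCh38.p12, and the raw counts per gene were deposited without normalization. Which annotation was used, whether counting kept strand and what was done with multi-mapped reads are not given in the sources used here. Groups and replicate numbers came from the labels, and 0 columns of counts were left unused. Of 28747 identifiers, 26153 have a symbol in GENCODE release 44, which gave positions on GRCh38 and exonic lengths. It also gave GC content, taken from the longest transcript of each gene. Libraries are 3 independent replicates per group, and each pair differed by more than counting error, with a chi-square per gene of 2.73 to 43.9. Depth was 23668070 to 26957777 counts in adherent shCtrl, 19542016 to 22006759 in adherent shSigma, 16472722 to 19164645 in sphere shCtrl and 18626387 to 19698970 in sphere shSigma libraries, so genes with a few counts are known only roughly.

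From the deposited counts, CPM were computed on TMM-scaled library sizes, and log2 fold changes and p-values came from the robust quasi-likelihood test of edgeR 4.0.16 with limma 3.58.1 in R 4.3.3, two-sided, adjusted by Benjamini-Hochberg across every tested gene. filterByExpr used a minimum count of 10 and the prior count was 0.125. Each comparison was fitted on its own 6 libraries, and the difference between cultures on all 12. SE is the absolute log2 fold change fitted without the prior count, divided by the square root of F. Calls needed an adjusted p under 0.05, and passing both thresholds also needed an absolute log2 fold change over 1. Members are named, except that some genes under this rule are not reported here. Those past both thresholds in at least 1 of the 4 pairwise comparisons are given with their level in every library, except that sphere levels of ITGA7 and ITGA11 are given as ranges. Listed pathway genes are named where they pass both in a comparison of hairpins. KRT8, KRT18, PTPRC, COL1A1 and EGFL7 fall outside this rule, and their values were seen first. The members and lists were chosen with earlier results of these data known. Same-numbered replicates did not deviate together in every pair of any comparison (correlations of -0.939 to 0.0455 in adherent cells, -0.25 to -0.0771 in spheres, -0.617 to 0.408 between cultures in shCtrl and -0.0426 to 0.582 in shSigma cells), so the numbers were not used as pairs.

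Alternatives were DESeq2 1.42.0, its size factors, no filter, at least 10 counts in every library, the replicate block, each library left out, 1 fit of all 12 libraries and the median of the 40 nearest genes as an offset. A GC content trend as an offset and the removal of 2 adherent libraries were added after seeing the data. Figures used Python 3.11.15, pandas 2.3.3 and matplotlib 3.10.9.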

Additional observations from a re-analysis of the deposited data

Results flagged for a closer look

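For the members given here the difference between shSigma and shCtrl cells differed between tumor spheres and adherent cells by the interaction of hairpin and culture in edgeR's quasi-likelihood test at a Benjamini-Hochberg adjusted p under 0.05. The value is the log2 fold change in spheres minus that in adherent cells. Among collagen and laminin receptor alpha subunits it was -2.01 for ITGA2, -0.81 for ITGA1, -1.96 for ITGA11, 0.60 for ITGA6 and -1.16 for ITGA7. Among other alpha subunits it was -3.24 for ITGAX, 1.48 for ITGAM and 0.34 for ITGAV. Beta subunits had 1.49 for ITGB2, -0.75 for ITGB3, -1.84 for ITGB4, 1.46 for ITGB5 and -1.24 for ITGB8. Laminin chains had 1.35 for LAMA1, -0.90 for LAMA3 and 0.75 for LAMC1, and the nidogens -1.27 for NID1 and -0.97 for NID2. The calls of ITGB3, ITGA11, ITGB4 and ITGB8 were each lost in 10 or more alternatives. That of ITGB3 held in 2 of 19, those of ITGB4 and ITGB8 in 7 of 19 and that of ITGA11 in 6 of 18. The call of ITGAM was lost with DESeq2 and without adherent shSigma replicate 1 or 2, adherent shCtrl replicate 3 or sphere shSigma replicate 2 (adjusted p 0.0538 to 0.0719). That of ITGAV was lost with the replicate block and without adherent shSigma replicate 1 or 2, adherent shCtrl replicate 2, sphere shSigma replicate 2 or 3, or sphere shCtrl replicate 3 (adjusted p 0.0542 to 0.0665).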

How the results depend on the processing

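The counts of members called and past both thresholds stayed within 1.5 times of the reported counts under every alternative run. Leaving out 1 library at a time gave 16 to 20 called members in adherent cells (11 to 13 past both thresholds), 26 to 27 in tumor spheres (10 to 11), 13 to 19 for culture in shCtrl (9 to 11), 16 to 25 for culture in shSigma cells (7 to 12) and 14 to 17 for the difference between cultures. In the same fits and order, 37% to 50.7%, 54.2% to 59.2%, 41% to 60.3%, 34.3% to 56.2% and 22.5% to 32.7% of all genes were called. With the replicate block the calls numbered 15 for adherent cells and 26 for spheres, where 35.4% and 59.3% of all genes were called. The adherent calls of ITGA5, ITGA6, ITGB2, ITGB4 and HSPG2 were lost with it. Among culture values in shSigma cells ITGA10 was lost and AGRN gained with that block. ITGA10, ITGA11 and ITGAM were lost with DESeq2, and ITGA11 also without sphere shSigma replicate 1 (adjusted p = 0.059). In that comparison ITGA10 and LAMB3 were each called in 7 of 13 alternatives and ITGAV in 9 of 13. Same-numbered libraries share only a number.

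Among values called as reported or under the alternative in question, directions turned for 7, and values called in neither also changed sign. With the GC content trend as an offset, ITGAV in adherent cells was 0.11, ITGA2B, ITGA5 and LAMA5 from adherent to sphere in shCtrl were -0.50, -0.18 and -0.84, and ITGA7 and AGRN in shSigma were -0.32 and -0.20. With the median of the 40 nearest genes taken off, ITGB1 in spheres was -0.014. The cause was not tested. The 3 replicates per group limit what can be said of the hairpin, and the number of lines behind them is not given in the sources used here.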
